A study of Mus musculus with 9 samples.

Results

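Gene expression in the caput, the proximal region of the epididymis where sperm begin to mature, was compared between 2 mouse models in which the testis supplies it differently. The 6 libraries were chosen by their sample titles out of 9 in the series: 3 of W/Wv mice and 3 of mice with ligated efferent ducts (EDL). All mice were 14 weeks old, and messenger RNA was sequenced from the caput of each group. EDL mice are labelled with the wild-type genotype, and the ducts that carry sperm and fluid from the testis had been tied off. W/Wv mice are labelled as untreated and carry a pair of mutant alleles of Kit, so their testes hold almost no germ cells while the ducts remain patent. The remaining 3 libraries, from untreated wild-type mice (WT), serve as a reference level and also enter the fit and the filter on low values. The labels name no sham operation and no strain. Effects of the operation, of the block, of the genotype and of strain therefore cannot be told apart in this comparison. The Kit alleles are present in every tissue of the mouse, and Kit itself was not analysed here. Whether the 3 libraries of a group came from separate animals is not stated in the labels, so p-values measure only the spread between them, which may be technical.

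Principal cells of the caput secrete proteins into the lumen that coat and remodel passing sperm. In the most proximal stretch, the initial segment, many of these genes depend on factors of the testis that arrive in the luminal fluid, a mode of signalling called lumicrine. In the mouse, germ cells release NELL2, which acts on the receptor ROS1 of these cells and, through the ERK kinases, keeps the initial segment differentiated. Cystatins, lipocalins, beta-defensins and Crisp proteins are among the secreted families for which this tissue is known.

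The deposited table lists 2462 genes, with 3536247 to 4789208 reads per W/Wv or EDL library. Its 5 most abundant genes take 29.3% to 33.5% of those reads, led by Gpx5, a secreted glutathione peroxidase that marks the caput. The table is only a part of the transcriptome, so shares of genes below describe the table and not the genome. Of 10 caput principal cell markers 7 are listed. Gpx5 had 27349, 25001 and 26629 FPKM (fragments per kilobase of transcript, scaled to sequencing depth) in EDL libraries 1 to 3 and 22510, 24023 and 22842 in W/Wv. Gpx5 was thus high in each of the 6 libraries, with no test passed between the models (limma adjusted p = 0.17). The other listed markers did not all keep their WT level. Lcn8, Cst8, Crisp1 and Crisp4 were below WT in every library of both models, Lcn5 was above it and Krt8 overlapped with it. Lcn8 fell furthest, from 16243 to 21077 FPKM in WT to 2.64 to 4.52 in EDL and 2.21 to 2.76 in W/Wv.

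The first question was how far apart the models lie. Pearson's r between log2(FPKM + 1) profiles, across genes, which are not independent replicates, was 0.979 to 0.983 for a W/Wv with an EDL library. It was 0.993 to 0.997 within EDL and 0.993 to 0.996 within W/Wv, so each pair of libraries from different models was less alike than any pair from the same model. Of 2013 genes tested, those with an FPKM of at least 1 in at least 3 libraries, 281 differed at an adjusted p under 0.05 (limma on log2(FPKM + 1) with Benjamini-Hochberg adjustment). That is 14% of the genes tested, with 140 higher in W/Wv (6.95%) and 141 lower (7%). With edgeR on reads recovered from the table the split was 207 higher and 129 lower, so the share of higher genes moved from 49.8% to 61.6%. The 3 values of each model did not overlap in 780 genes, 38.7% of those tested, and all 281 genes that passed were among them. Leaving out EDL library 1, 2 or 3 or W/Wv library 1 lowered the count to 174, 187, 174 and 181, the 6 libraries fitted without WT gave 425, and leaving out WT library 3 gave 385. Of the genes tested, 107 had 1 FPKM in fewer than 3 of the 6 libraries of the models and passed the filter with the help of WT, and 8 of those differed.

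Most of the differences were small. Only 12 genes differed by 2-fold or more on the log2(FPKM + 1) scale, 4 of them higher and 8 lower in W/Wv, a count that grew to 36 with a pseudocount of 0.1 because the scale understates changes of low genes. A further 45 genes differed by 1.5 to 2-fold and 224 by less. The median absolute log2 change was 0.35 among the genes that passed and 0.10 among all genes tested. The 95% interval of the difference lay within 2-fold in either direction for 1954 genes (97.1%) and within 1.5-fold for 1816 (90.2%). For the remaining genes the libraries do not show how close the models are.

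**Figure D1:**
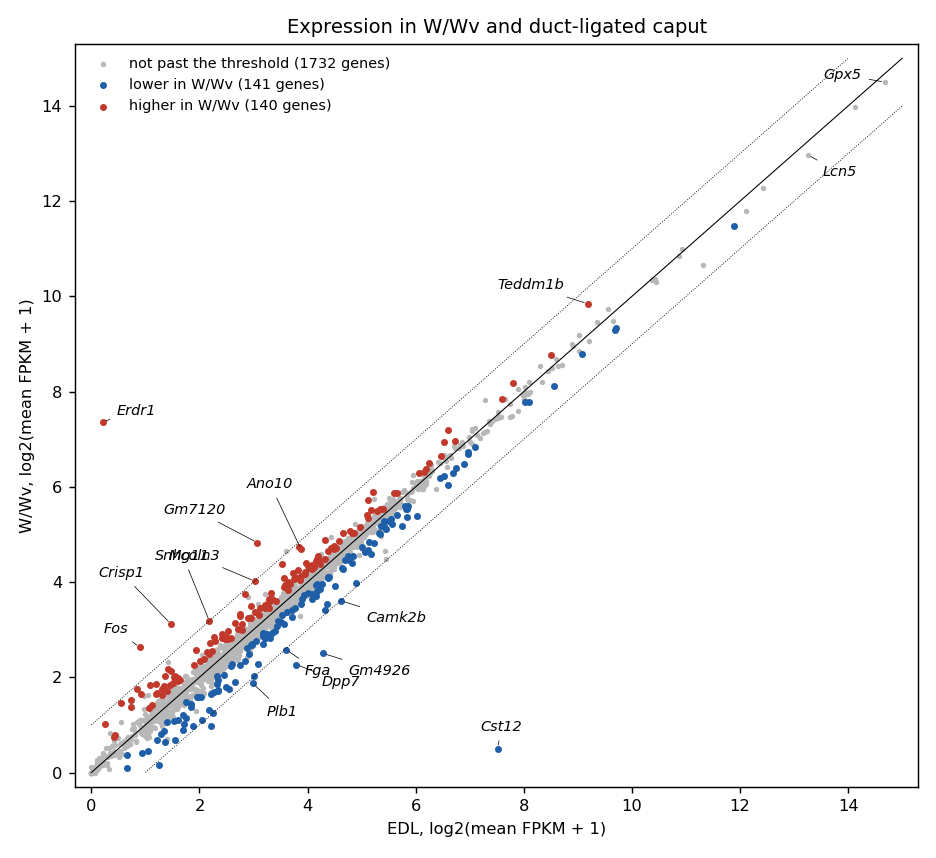
Mean expression in EDL (horizontal) and W/Wv (vertical), both as log2(mean FPKM + 1), with each point a tested gene, the solid line equality and the dotted lines a 2-fold difference. The 140 genes higher in W/Wv are red, the 141 lower are blue and the 1732 that did not pass are grey; Cst12 and Erdr1 stand far from the line while most genes that passed lie between the dotted lines.

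Cst12 differed most among the genes lower in W/Wv. It encodes a secreted protein of the cystatin family of cysteine protease inhibitors (chromosome 2, 148789365 to 148793432, GRCm38). It had 202, 164 and 183 FPKM in EDL and 0.644, 0.602 and 0 in W/Wv. These levels rest on 4155 reads over the EDL libraries and 8 over the W/Wv libraries. The 3 WT libraries had 6542, 5123 and 6356 FPKM, so EDL kept a small part of the WT level and W/Wv almost none. The log2 change, W/Wv minus EDL, was -7.05 (SE 0.19, limma adjusted p = 1.3e-07). In bulk tissue, fewer cells of a type and less RNA per cell cannot be told apart.

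The neighbours Cst8 and 9230104L09Rik on chromosome 2 were too low in EDL to show a fall as large as that of Cst12 in W/Wv. Cst8, a cystatin-related epididymal protein (148798839 to 148805596), had 1.204, 0.826 and 1.29 FPKM in EDL and 0.773, 0.931 and 0.833 in W/Wv, far below the WT mean of 2557. Its log2 change of -0.19 had a 95% interval of -0.41 to 0.04 (adjusted p = 0.26). Cst8 reached the filter with the help of WT and had 37 reads over the EDL libraries and 24 over W/Wv. The gene 9230104L09Rik (148844620 to 148850962), with a WT mean of 9611 FPKM, had 9.54, 3.74 and 5.97 FPKM in EDL and 7.16, 23.5 and 5.03 in W/Wv. W/Wv library 2 was high and the other values overlapped. Its log2 change of 0.60 had a 95% interval of -0.77 to 1.96 (adjusted p = 0.55). Cst8 and 9230104L09Rik were thus far below their WT means in both models and did not pass between them. Cst3, another cystatin, reached the filter in the libraries of the models and did not pass either.

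Crisp1 and Fos went the other way. Crisp1 encodes a cysteine-rich secretory protein that associates with sperm and lies on chromosome 17 (40293758 to 40319207). It had 1.67, 1.92 and 1.75 FPKM in EDL and 7.34, 10.5 and 5.20 in W/Wv. Each W/Wv value was above each EDL value, and all were far below the WT mean of 1498 (log2 change 1.60, SE 0.20, limma adjusted p = 0.0014). Fos, an immediate early transcription factor gene and subunit of AP-1 (chromosome 12, 85473890 to 85477274), had 0.729, 0.957 and 0.891 FPKM in EDL. In W/Wv it had 5.41, 3.56 and 6.56, and in WT 3.89, 9.51 and 4.96. The W/Wv values overlapped those of WT and lay above those of EDL (log2 change, W/Wv minus EDL, 1.70, SE 0.28, adjusted p = 0.0045).

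The bases just upstream of the start sites of these 4 genes are shown because Cst12, Crisp1 and Fos, a cystatin, a Crisp protein and an AP-1 subunit, passed by 2-fold or more and Cst8 is a neighbour of Cst12 that did not pass. They are the 250 bases before the RefSeq start (GRCm38.p6), written 5′ to 3′ on the strand of the gene. Capitals mark a match to a searched motif.
Cst12: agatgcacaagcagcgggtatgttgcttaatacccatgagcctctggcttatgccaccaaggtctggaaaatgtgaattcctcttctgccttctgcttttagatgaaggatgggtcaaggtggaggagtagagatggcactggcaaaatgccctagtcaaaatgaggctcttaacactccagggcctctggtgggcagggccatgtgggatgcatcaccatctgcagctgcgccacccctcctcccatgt
Cst8: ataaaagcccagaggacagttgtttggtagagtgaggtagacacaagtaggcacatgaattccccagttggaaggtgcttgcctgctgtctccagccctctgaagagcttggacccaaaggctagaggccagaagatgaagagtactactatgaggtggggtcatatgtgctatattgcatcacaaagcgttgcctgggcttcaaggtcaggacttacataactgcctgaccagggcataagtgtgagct
Crisp1: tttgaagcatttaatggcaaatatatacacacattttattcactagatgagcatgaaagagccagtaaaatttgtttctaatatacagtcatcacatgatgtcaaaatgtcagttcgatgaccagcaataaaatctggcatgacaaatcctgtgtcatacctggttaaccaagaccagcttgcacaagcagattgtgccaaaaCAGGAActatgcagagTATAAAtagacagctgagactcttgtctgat
Fos: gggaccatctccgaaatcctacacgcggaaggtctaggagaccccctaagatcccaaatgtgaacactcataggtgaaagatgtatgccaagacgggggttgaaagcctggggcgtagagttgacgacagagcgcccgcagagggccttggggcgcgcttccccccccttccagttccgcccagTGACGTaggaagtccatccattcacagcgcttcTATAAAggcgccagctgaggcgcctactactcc
The windows are chr2:148789115-148789364 on the plus strand for Cst12, chr2:148798589-148798838 on the plus strand for Cst8, chr17:40319208-40319457 on the minus strand for Crisp1 and chr12:85473640-85473889 on the plus strand for Fos. Both strands were searched for 5 motifs, among 32851 windows of the same length. The TATA box, spelled TATAAA, is in 12.4% of the windows. The AP-1 motif, with the letters TGANTCA, is in 6.75%. Part of the cAMP response element, read as TGACGT, is in 6.47%. Part of an androgen receptor site, searched as AGAACA, is in 16.1%, and the ETS motif CAGGAA in 25.7%. Crisp1 has TATAAA at -31 to -26 and CAGGAA at -47 to -42 from the start, and Fos has TATAAA at -33 to -28 and TGACGT at -66 to -61. None of the motifs occurs in these letters of Cst12 or Cst8. A match is a description of the letters and not a site.

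Further genes were higher in W/Wv. Erdr1 (chromosome X), annotated as a transcribed pseudogene, had 0.300, 0.0900 and 0.0752 FPKM in EDL and 206, 60.7 and 224 in W/Wv. Its 3 WT libraries were at 5.34, 153 and 97.2 FPKM, so it varied widely within WT and within W/Wv. The call (adjusted p = 0.016) was lost without EDL library 1, 2 or 3 and without W/Wv library 1 or 3, at adjusted p = 0.056 to 0.061. Gm7120 (chromosome 13) had 5.62, 8.92 and 7.72 FPKM in EDL and 24.6, 31.9 and 25.6 in W/Wv, with a WT mean of 17.5 between the models. Snhg11, a noncoding host gene of small nucleolar RNA, was at 3.54 ± 0.0857 FPKM in EDL and 8.07 ± 0.654 in W/Wv (SD, n = 3), above a WT mean of 0.705.

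Several of the other genes higher in W/Wv encode membrane or secreted proteins. Mcoln3, a cation channel of endosomes and lysosomes, had 6.68, 7.40 and 7.36 FPKM in EDL and 14.8, 16.1 and 14.7 in W/Wv (log2 change 0.99, adjusted p = 6.3e-06). Ano10, of the anoctamin family of channels and scramblases, had 13.3, 14.4 and 13.5 FPKM in EDL and 24.9, 23.9 and 25.3 in W/Wv. W/Wv came closer to the WT mean of 37.9 for Ano10, but lay further from the WT mean of 5.25 for Mcoln3. Cldn10, a tight junction protein, had 5.56, 6.05 and 6.91 FPKM in EDL and 10.3, 16.02 and 10.9 in W/Wv against a WT mean of 216. Both models thus stayed far below WT. Plxdc1, a transmembrane protein with a plexin domain, had 10.5 ± 0.722 and 19.9 ± 1.04 FPKM in EDL and W/Wv, and Spock1, a secreted proteoglycan, 36.0 ± 1.37 and 58.1 ± 2.38 (SD, n = 3). Teddm1b, a transmembrane protein of the epididymis and the most abundant of the 20 genes named as higher, was at 592, 564 and 586 FPKM in EDL and 901, 955 and 896 in W/Wv (log2 change 0.66, SE 0.11, adjusted p = 0.0022).

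The rest of the 20 named genes higher in W/Wv were Gsto1, a glutathione transferase of the omega class, Mmp7, Sectm1a, Nsdhl, Pign, Tceal3, Ptprm, Fastkd3 and Myh10. Gsto1 stood out for the tightness of its W/Wv values, 25.3, 25.6 and 25.8 FPKM, against 15.9, 11.9 and 12.3 in EDL. Pign, an enzyme of glycosylphosphatidylinositol anchors, had 3.57, 3.83 and 4.12 FPKM in EDL and 6.42, 6.30 and 5.87 in W/Wv. The log2 changes of these 9 genes ran from 0.53 for Myh10 to 0.90 for Gsto1. Mmp7, a matrix metalloproteinase, lost its call without EDL library 2, EDL library 3 or W/Wv library 3, at adjusted p = 0.060 to 0.065.

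Among genes lower in W/Wv, Dpp7, a lysosomal dipeptidyl peptidase (chromosome 2), had 13.5, 12.5 and 12.6 FPKM in EDL and 4.04, 2.92 and 4.49 in W/Wv. The W/Wv values bracketed the WT mean of 3.09, and only EDL stood apart (log2 change -1.54, SE 0.11, adjusted p = 8.1e-06). Plb1, a phospholipase (chromosome 5), had 7.99, 6.01 and 6.70 FPKM in EDL and 2.47, 3.23 and 2.32 in W/Wv, above a WT mean of 1.05. Camk2b, a subunit of calcium/calmodulin-dependent kinase II (chromosome 11), had 24.3, 22.6 and 23.8 FPKM in EDL and 10.6, 10.9 and 12.02 in W/Wv. For this gene WT was highest, at 55.8 ± 4.89 FPKM, so W/Wv lay further from WT than EDL did (log2 change, W/Wv minus EDL, -1.01, SE 0.07, adjusted p = 7.8e-06). Camk2d, another subunit of this kinase, which was named after its values were seen, went the other way, at 11.4 FPKM in EDL and 15.1 in W/Wv on average.

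Fga, the alpha chain of fibrinogen (chromosome 3), had 10.5, 11.6 and 11.4 FPKM in EDL and 4.50, 5.57 and 4.86 in W/Wv. Its partner on the same chromosome, Fgg, the gamma chain, was low in both models, with 91 reads over the EDL libraries and 27 over W/Wv. For both chains W/Wv was below EDL, and WT was above both models. The Fgg call (adjusted p = 0.044) was lost without any 1 of the 6 libraries of the models and without WT library 3, at adjusted p = 0.053 to 0.14. Fgg reached the filter with the help of WT and had at most 34 reads in a library of the models. Lrrc10b (log2 change -0.997), Zfp950, a zinc-finger protein (-0.90), Gm1673 (-0.83), the noncoding transcript AA465934 (-0.81) and Ppm1j, a protein phosphatase (-0.75), were also lower. Gm4926 had 19.1, 18.3 and 18.1 FPKM in EDL and 4.61, 5.22 and 4.16 in W/Wv, and Pisd-ps1 62.9, 65.0 and 64.7 and 40.7, 36.7 and 44.3. Both are annotated as transcribed pseudogenes, so reads that their parent genes share could have been split between copies. Also lower in W/Wv among the named genes were Wdr25, Slc16a11, a monocarboxylate transporter relative, Rab44, 4930412O13Rik and 3110056K07Rik, with log2 changes of -0.59 to -0.48. Rab44 lost its call (adjusted p = 0.035) without any 1 of the 6 libraries of the models, at up to 0.11.

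**Figure D2:**
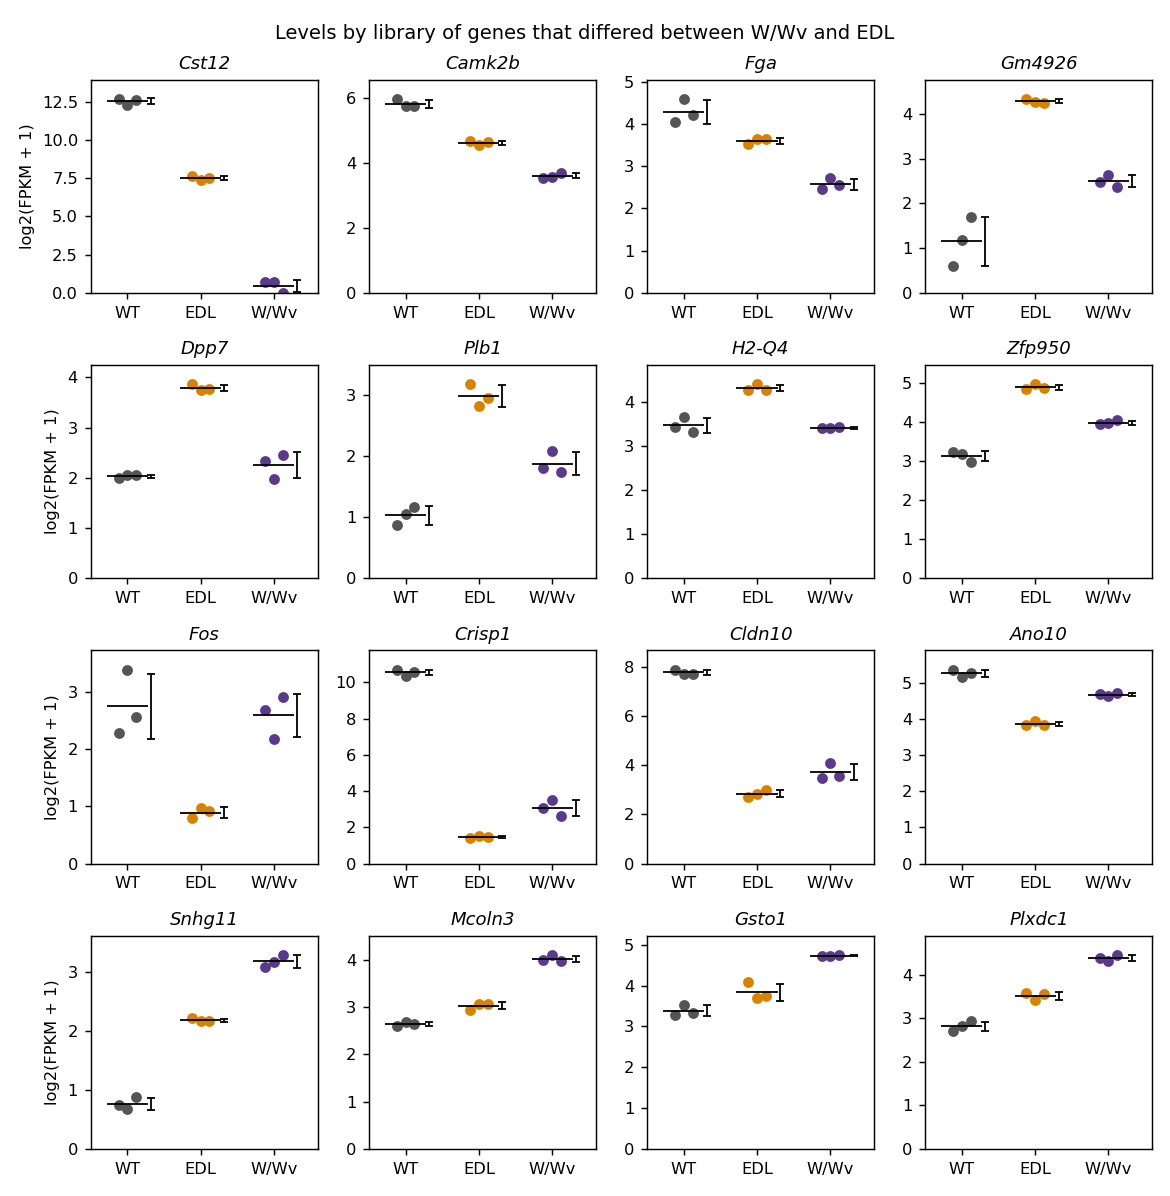
Values of 16 named genes in every library as log2(FPKM + 1), with dots for libraries, a bar for the group mean and a whisker for the SD (n = 3). EDL and W/Wv do not overlap in any panel, because only genes without overlap were named. The WT dots show that the model nearer to WT is EDL for Cst12, Camk2b and Fga and W/Wv for Dpp7, H2-Q4, Ano10 and Fos.

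RNA-binding and splicing proteins bind RNA and process pre-mRNA. Of 42 tested, 11 were lower, 0 were higher and 31 did not pass, so 26.2% passed beside 14% of all genes, and 7% of all genes were lower. The median log2 change of the 42 genes was -0.11, and that of all genes tested was 0. With no adjustment, at p under 0.05, 17 were lower and 1 was higher, and edgeR and DESeq2 each called 10 lower and 0 higher. The 11 genes split into RNA-binding hnRNP proteins and relatives (Hnrnpa1, Hnrnpd, Hnrnpdl and Hnrnph1), SR-type splicing factors (Srsf1, Srsf11 and Pnisr), and Rbm5, Clk1, Luc7l3 and Pabpn1. Beyond the first 4 by size, these were named after their values were seen.

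Hnrnpa1, an hnRNP protein that binds pre-mRNA (chromosome 15), had 57.2, 47.0 and 54.6 FPKM in EDL and 36.6, 36.3 and 32.9 in W/Wv. W/Wv was at the WT mean of 34.9 and only EDL stood apart (log2 change -0.57, SE 0.08, adjusted p = 0.00074). This gene has many processed copies in the genome, so its reads are uncertain. Hnrnpdl, an hnRNP D-like protein, had 37.6, 41.1 and 39.8 FPKM in EDL and 31.6, 31.2 and 30.7 in W/Wv. Hnrnph1, which regulates splicing through G-rich sequences, had 84.5, 87.5 and 86.0 and 70.3, 73.3 and 71.5. The kinase Clk1, which phosphorylates SR proteins, had 54.9, 57.3 and 54.6 FPKM in EDL and 44.1, 46.7 and 46.2 in W/Wv. Rbm5, a splicing regulator, had 38.0, 39.3 and 39.3 and 30.8, 32.04 and 32.4. In these 5 genes the EDL values were all above the W/Wv values, but none of the 281 genes that passed had overlap. The WT mean was below both model means in all 11 genes.

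The size of the change ranged from -0.57 for Hnrnpa1 to -0.14 for Srsf1, the splicing factor SF2/ASF, whose call (adjusted p = 0.043) was lost without any 1 of the 6 libraries of the models, at up to 0.12, and with edgeR (0.086) and DESeq2 (0.10). Hnrnpd kept its call without each library except EDL library 3 (adjusted p = 0.053). Srsf11 lost its call without EDL library 2 or 3 or W/Wv library 1 (adjusted p = 0.052 to 0.063), and Pabpn1, the nuclear poly(A) binding protein, without any 1 of the 6 libraries (0.057 to 0.11). Pnisr lost it without 5 of them (0.061 to 0.12), all but EDL library 1. Hnrnpa1, Hnrnpdl, Hnrnph1, Rbm5, Clk1 and Luc7l3 passed under each of the 19 alternative settings, and the list had 6 to 13 genes lower and 0 higher under all of them, with 7 without EDL library 2 or W/Wv library 1 and 6 without EDL library 3.

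Hox genes, which encode transcription factors that pattern the body along its axis, passed in 1 direction. Of 7 tested, 4 were lower (57.1%, beside 7% of all genes), 0 were higher and 3 did not pass, with a median log2 change of -0.30 (5 lower and 0 higher at an unadjusted p under 0.05, and 4 and 0 with edgeR and with DESeq2). Hoxd4 (chromosome 2) had 96.8, 96.3 and 96.0 FPKM in EDL and 63.3, 65.0 and 64.5 in W/Wv, a separation far wider than the spread in each model (log2 change -0.58, SE 0.07, adjusted p = 0.00034). Hoxd3, its neighbour, had 32.3, 32.2 and 32.7 FPKM in EDL and 22.8, 23.0 and 25.7 in W/Wv. Hoxb4 (chromosome 11) had 17.2, 16.2 and 17.1 and 11.9, 11.9 and 12.6, and Hoxb2 27.0, 25.4 and 26.1 and 20.8, 20.9 and 21.4. W/Wv was nearer to the WT mean than EDL for Hoxd4, Hoxd3 and Hoxb4, at 54.4, 14.1 and 9.35 FPKM in WT, and EDL was nearer for Hoxb2, at 24.6. Hoxb5, Hoxb3 and Hoxa4 did not pass, with changes of -0.19, -0.09 and 0.07. Neighbouring Hox genes can share transcripts and overlap, so the 4 genes, in clusters on chromosomes 2 and 11, are not 4 separate results. The list kept 4 to 5 genes lower and 0 higher under the 19 alternatives.

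Secreted families of the caput are given beside the 14% of all genes that passed. The shares were 16.7% of cystatins, 0% of lipocalins, 12.5% of beta-defensin and Spag11 genes and 33.3% of Crisp genes. Of 6 cystatins tested only Cst12 passed (3 of the 6 reached the filter with the help of WT). By limma, edgeR or DESeq2, 0 of 5 lipocalins passed (1 at an unadjusted p under 0.05). Lcn8, a lipocalin of the initial segment, had 3.83, 2.64 and 4.52 FPKM in EDL and 2.21, 2.76 and 2.67 in W/Wv, against a WT mean of 17981. The low levels overlapped between the models (log2 change -0.38, 95% interval -0.72 to -0.03, adjusted p = 0.14). Without EDL library 2 Lcn8 passed as lower, with a log2 change of -0.54 (adjusted p = 0.022), and Mup6, a major urinary protein in the lipocalin list, as higher, with 0.63 (0.047). Lcn5, a lipocalin that binds retinoids, had 9572, 9906 and 9780 FPKM in EDL and 9500, 7246 and 7360 in W/Wv. Its 95% interval, -2.12 to 1.54, is too wide to show likeness. Of 8 beta-defensin and Spag11 genes, 1, Spag11a, was lower in W/Wv by limma and 7 did not pass. With edgeR the beta-defensin Defb37, at 154 FPKM in EDL and 226 in W/Wv on average, was higher (log2 change 0.58, adjusted p = 0.033; limma 0.15, DESeq2 0.12). The Spag11a call (adjusted p = 0.024) was lost without any EDL library and without W/Wv library 2 or 3, at 0.068 to 0.093. Of 3 Crisp genes only Crisp1 passed.

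Of 13 protease inhibitors, 4 were lower, 1 was higher and 8 did not pass, so 38.5% passed beside 14% of all genes. Spint2, a Kunitz inhibitor of membrane-bound serine proteases, had 885, 798 and 832 FPKM in EDL and 685, 609 and 641 in W/Wv (log2 change -0.38, adjusted p = 0.0047). Wfdc10 and Spink10 were lower beside Cst12 and Spint2, and Serpinb9 was higher. The Wfdc10 call was lost when libraries were scaled by quantiles. Spink10 lost its call without any EDL library, W/Wv library 1 or 3 or WT library 2 (adjusted p = 0.051 to 0.12), and Serpinb9 without EDL library 1 or 2 or W/Wv library 1 (0.055 to 0.066). Of 11 secreted and membrane proteases, 3 were lower, 2 were higher and 6 did not pass, so 45.5% passed beside 14% of all genes. Besides Dpp7, Adam33, a membrane metalloproteinase, was lower, with 4.27, 4.05 and 3.87 FPKM in EDL and 2.09, 2.17 and 2.53 in W/Wv. The third lower gene was Prss41, a serine protease, which lost its call without EDL library 2 or 3 or W/Wv library 1 (adjusted p = 0.054 to 0.061). Prss41 reached the filter with the help of WT and had at most 22 reads in a library of the models. Klkb1, the plasma kallikrein gene, was higher beside Mmp7, and lost its call without any EDL library and without W/Wv library 1 or 3 (0.051 to 0.10). Ovch2, a protease of the initial segment, was at 22.5, 23.3 and 22.7 FPKM and 23.9, 22.4 and 22.5, so that its log2 change of 0.00 had an interval of only -0.15 to 0.16.

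Cholesterol synthesis had 2 of 7 genes higher in W/Wv, 0 lower and 5 that did not pass, a median log2 change of 0.04. In all 28.6% passed, beside 14% of all genes. Nsdhl, a sterol dehydrogenase (chromosome X), had 101, 90.3 and 96.5 FPKM in EDL and 138, 156 and 139 in W/Wv, and Sc5d, a sterol desaturase, 12.7, 14.0 and 12.6 and 19.1, 18.3 and 17.03. For both genes W/Wv lay between EDL and the WT means of 210.3 and 34.2 FPKM. Glutathione enzymes and peroxidases had 2 higher (Gsto1 and Gsr, a glutathione reductase), 1 lower (Gpx8) and 6 that did not pass. Their share that passed was 33.3%, beside 14% of all genes. Gsr lost its call without any EDL library and without W/Wv library 1 or 2 (adjusted p = 0.074 to 0.15). Gpx8 lost its call without EDL library 1 or W/Wv library 1 or 3 (0.050 to 0.058). Of 26 testicular germ cell and sperm genes in the table, 13 were tested, but 8 of these reached the filter through WT alone and had at most 10 reads in a library of the models. Of the other 5, 1, Catsperg1, was lower in W/Wv, and Dkkl1, Odf2, Spata1 and Tex10 did not pass. Catsperg1, whose product belongs to the sperm calcium channel, lost its call without EDL library 2 or 3 or W/Wv library 1 or 2, at adjusted p = 0.060 to 0.067. Sycp1, a protein of the synaptonemal complex of meiosis, was left out of the test for its low level. It had 37, 38 and 27 reads in the EDL libraries, 0 in each W/Wv library and 3 in all WT libraries. With 3 reads per group taken as the floor, Sycp1 reads were at least 29.3-fold lower in W/Wv, counting error alone considered.

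The share that passed was 16.7% of immediate early genes, 0% of ERK route genes and 20% of heat shock proteins and chaperones. Of all genes tested 14% passed. Of 6 immediate early genes Fos was higher and 5 did not pass; Junb was at 29.5, 27.7 and 27.6 FPKM in EDL and 37.4, 28.8 and 42.9 in W/Wv, so W/Wv library 2 was low (limma adjusted p = 0.10, with edgeR 0.038 and DESeq2 0.012). Zfp36 showed the same order, at 18.1, 17.5 and 18.8 and 21.4, 18.6 and 28.8 (limma adjusted p = 0.17, with edgeR 0.077 and DESeq2 0.041). Without W/Wv library 2, both passed with log2 changes of 0.49 and 0.43. Of 4 genes of the ERK route and its feedback 0 passed by limma, and 1, Shc4, passed with edgeR and with DESeq2 and at an unadjusted p under 0.05. Shc4, an adaptor of receptor tyrosine kinases, had 0.187, 0.258 and 0.159 FPKM in EDL and 0.492, 0.438 and 0.384 in W/Wv (limma adjusted p = 0.059). Shc4 reached the filter with the help of WT and had at most 41 reads in a library of the models. It passed without WT library 1 or 3, at adjusted p = 0.041 and 0.042. Of 10 heat shock proteins and chaperones, Hspa1b, an inducible Hsp70, was lower, with 34.7, 34.8 and 32.2 FPKM in EDL and 24.5, 23.8 and 25.2 in W/Wv (adjusted p = 0.0012). Bag4, a co-chaperone, was higher, a call (adjusted p = 0.048) lost without any 1 of the 6 libraries of the models, at up to 0.17. Hspa1a, the near-identical partner of Hspa1b, did not pass (adjusted p = 0.12), and the split of reads between the pair is uncertain.

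Of 7 histocompatibility 2 genes, 2 were lower, 1 was higher and 4 did not pass, so 42.9% passed beside 14% of all genes. H2-Q4, a class I gene (chromosome 17), had 18.6, 20.2 and 18.6 FPKM in EDL and 9.60, 9.64 and 9.94 in W/Wv, close to the WT mean of 10.2. H2-T22 was lower as well, at 5.80, 6.06 and 5.23 and 4.14, 3.13 and 4.15, but here WT was highest, at 6.83. The 1 higher gene was H2-D1, with 236, 212 and 218 FPKM in EDL and 289, 284 and 297 in W/Wv, a call lost without EDL library 2 or 3 or W/Wv library 3 (adjusted p = 0.054 to 0.064). Genes of this family are alike and vary between strains, so their reads are uncertain, and a strain difference was not tested. Interferon response had 2 of 12 genes higher, Psmb8 and Gbp9, 0 lower and 10 that did not pass. In all 16.7% passed, beside 14% of all genes, and 3 were higher and 1 lower at an unadjusted p under 0.05. Psmb8, an immunoproteasome subunit, lost its call without EDL library 2 or W/Wv library 1 (adjusted p = 0.053 to 0.055), and Gbp9, a guanylate-binding protein, without any EDL library, W/Wv library 2 or 3 or WT library 2 (0.056 to 0.17).

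**Figure D3:**
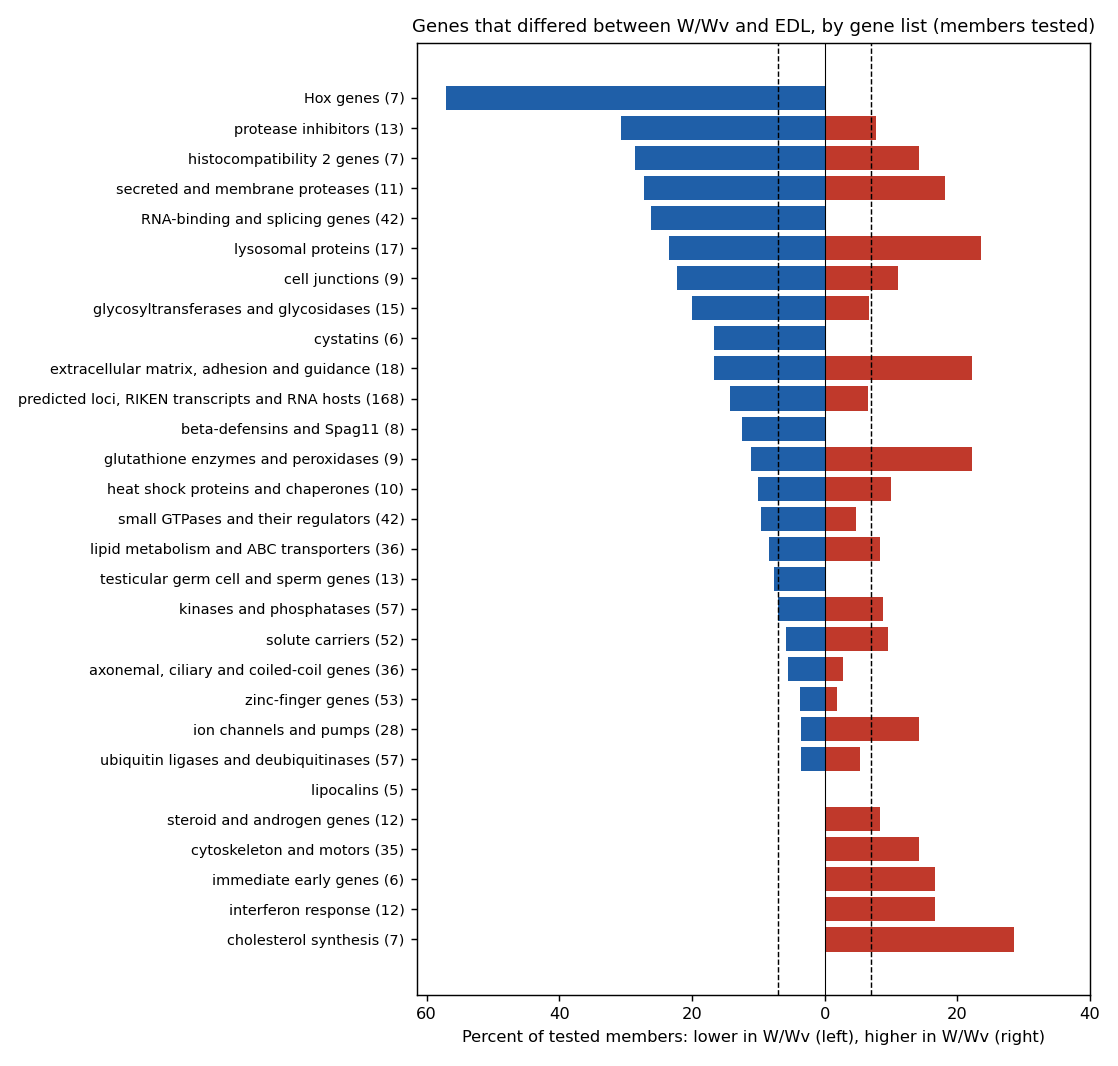
Percent of the tested members of each gene list that were lower (left, blue) or higher (right, red) in W/Wv than in EDL; the number tested is in brackets and the dashed lines are the shares over all genes, 7% lower and 6.95% higher. Hox genes, at 4 of 7, and RNA-binding and splicing genes, at 11 of 42, reach far to the left with none to the right.

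Other lists had members on both sides. Of 17 lysosomal proteins 4 were higher and 4 lower, 47.1% in all beside 14% of all genes. Mcoln3 and Arsb, an arylsulfatase, were higher and Dpp7 and Fuca2, a fucosidase, lower under all alternatives tried. Ids, also higher, lost its call without any 1 of the 6 libraries of the models (adjusted p = 0.077 to 0.11), and Gla, the other higher gene, without EDL library 1 or 2 or W/Wv library 2 or 3 (0.078 to 0.13). Npc2, also lower, lost it without any EDL library and without W/Wv library 2 or 3 (0.078 to 0.11), and Sgsh, the other lower gene, without EDL library 2 or W/Wv library 1 or 2 (0.067 to 0.087). Fuca2 had 56.7, 56.9 and 56.0 FPKM in EDL and 46.6, 45.7 and 43.3 in W/Wv. Of 52 solute carriers 15.4% passed, beside 14% of all genes, and 5 were higher and 3 lower. They were 3 and 3 without EDL library 2, 4 and 1 without EDL library 1 and 6 and 6 without WT library 3. Slc29a4, a nucleoside and monoamine transporter, had 0.766, 1.08 and 0.852 FPKM in EDL and 2.33, 1.96 and 2.06 in W/Wv (log2 change 0.72, adjusted p = 0.00024). The glucose transporter Slc2a1, named after its values were seen, had 17.6, 17.2 and 17.3 FPKM and 21.3, 20.6 and 22.1. Of 28 ion channels and pumps 4 were higher and 1 lower (2 lower without WT library 1 or 2 and 3 without WT library 3). Of 57 kinases and phosphatases 5 were higher and 4 lower, and 1 of the higher genes reached the filter with the help of WT. In all 17.9% of the channels and pumps and 15.8% of the kinases and phosphatases passed, beside 14% of all genes.

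Cytoskeleton and motors had 5 of 35 genes higher, 0 lower and 30 that did not pass. In all 14.3% passed, beside 14% of all genes, and 6.95% of all genes were higher. At an unadjusted p under 0.05, 7 were higher and 3 lower. Myh10, a non-muscle myosin heavy chain, had 10.2, 11.5 and 10.7 FPKM in EDL and 17.2, 15.003 and 15.8 in W/Wv, with a log2 change of 0.53 and an adjusted p of 0.00055. Myo6, a myosin that moves toward the minus end of actin, had 45.5, 49.7 and 47.7 FPKM in EDL and 57.4, 58.1 and 57.2 in W/Wv. Myo1d, an unconventional myosin, was higher too, at 15.8, 14.2 and 14.97 and 19.7, 18.2 and 19.9. Kif3b, a kinesin, was higher as well. The 5 became 3 without any 1 of the 6 libraries of the models and 8, with 1 lower, without WT library 3. The median log2 change of the list was 0.05, near that of all genes. Extracellular matrix, adhesion and guidance had 4 of 18 higher and 3 lower, 38.9% in all beside 14% of all genes. The 4 stayed at 4 without any 1 library, whereas the 3 (Efna3, Gpc4 and Sema3b, named after their values were seen) became 0 without any EDL library, without W/Wv library 1 or 2 and under median-ratio scaling, and 1 without W/Wv library 3 or WT library 2. Lipid metabolism and ABC transporters had 3 of 36 higher and 3 lower, 16.7% in all beside 14% of all genes. Cers3, a ceramide synthase, was lower, at 3.90, 3.07 and 3.66 FPKM in EDL and 1.33, 1.39 and 1.69 in W/Wv.

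Predicted loci, RIKEN transcripts and RNA host genes formed the largest list, with 168 tested. Of these, 24 were lower, 11 were higher and 133 did not pass, a median log2 change of -0.07, so 20.8% passed beside 14% of all genes. The 24 became 15 without EDL library 3 or W/Wv library 1, and 16 without EDL library 1. The 11 became 6 without EDL library 1 and 7 without W/Wv library 1. Of 53 zinc-finger genes 1 was higher and 2 were lower (5.66% beside 14%), a difference that was not tested. Without 1 library 0 to 2 were higher and 1 to 4 lower, with 1 lower without any EDL library or W/Wv library 1 or 2 and 4 without WT library 3. The 1 higher was lost without any EDL library or W/Wv library 1 or 3, and 2 were higher without W/Wv library 2. Of 57 ubiquitin ligases and deubiquitinases 3 were higher and 2 lower (8.77% in all beside 14%), and 5 and 5 without WT library 3. By chromosome, the share of genes that passed was 0 of 55 on chromosome 16, 4.05% of 74 on chromosome 6, and highest on chromosome 4, at 19.1% of 141. On chromosome 16, 6 of the 55 genes reached the filter with the help of WT and had at most 6 reads in a library of the models. There 11 genes had an unadjusted p under 0.05, and edgeR called 5 and DESeq2 4. These shares are counts and were not tested.

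The WT level placed the differences. The WT mean lay nearer to W/Wv than to EDL in 60.2% of all genes tested and in 66.5% of the 281 that passed. It did so for 106 of 141 genes lower in W/Wv (75.2%) and 81 of 140 higher (57.9%). Of the 281, the WT mean was above both models in 88, below both in 142 and between them in 51. Fos, Dpp7 and H2-Q4 are genes in which W/Wv lay at or near WT and EDL stood apart, while Cst12, Camk2b and Fga are genes in which WT was nearer to EDL.

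Markers of other cells were read beside these results. Mast cells are known to need Kit. Of their 9 markers, Cpa3, Cma1 and Mcpt4 are in the table, with 42 reads over the EDL libraries, 32 over WT and 0 over W/Wv. Their summed level was 0.628 to 0.823 FPKM in EDL and 0 in each W/Wv library, a fold of at least 12.1 with 3 reads per group as the floor. The exact two-sided permutation p of 0.1 is the smallest that 3 against 3 libraries allow. Of 6 melanocyte markers only Tyr is in the table, with 68 reads over the EDL libraries, 72 over WT and 51 over W/Wv (exact permutation p = 0.8). Of 10 Sertoli and Leydig cell markers only 2, Inha and Wt1, are in the table. Inha, the inhibin alpha subunit and a Sertoli cell marker, had 27.99, 27.3 and 26.6 FPKM in EDL and 19.5, 17.7 and 23.2 in W/Wv (adjusted p = 0.0061), above a WT mean of 5.39. Wt1 was left out of the test for its low level and did not follow Inha. It had 0.209, 0.0716 and 0.135 FPKM in EDL and overlapping values of 0.134, 0.197 and 0.126 in W/Wv. Uchl1, listed for nerve, had 5.61, 5.53 and 5.58 FPKM in EDL and higher values of 7.21, 7.24 and 6.79 in W/Wv. The 4 red blood cell markers in the table summed to 15.5 to 172 FPKM in EDL and 42.5 to 62.9 in W/Wv, so they varied more within EDL than between the models. The 12 sperm and germ cell markers in the table summed to 14.95 to 16.4 FPKM in EDL and 14.4 to 15.9 in W/Wv, a sum made mostly by Odf2, at 13.1 to 13.7 and 12.1 to 13.4. The other 10 beside Odf2 and Dkkl1 summed to 0.377 to 0.737 FPKM in EDL and 0.125 to 0.809 in W/Wv, so these levels were near 0 in both models. Of 20 initial segment markers 6 are in the table and 1, Cst12, passed; their sum of 199 to 238 FPKM in EDL and 34.5 to 36.6 in W/Wv moves with that gene. No marker of clear cells, basal cells, smooth muscle, fibroblasts, endothelium, macrophages, T cells, B cells or neutrophils was read from the table, and the part of any cell type in the results was not tested.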

How the data were processed

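Poly-A RNA of the caput epididymis was sequenced in 9 libraries from stranded mRNA preparations, per the labels' protocols, and W/Wv (3) was compared with EDL (3), grouped by sample title. TopHat2 2.1.1, Cufflinks 2.2.1 and mm10 are named, with no role, per the submitters' processing notes; the sources used here do not give the annotation, the use of strand or how the 2462 genes were selected. Reads of overlapping or antisense genes may therefore be mixed.

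The file headers show 2 deposited blocks of values. FPKM as deposited had been normalized between libraries, and how is not stated. The authors' normalized counts form the other block, a signal in which the reads of each library were scaled by a common factor (0.922 to 1.25). Undoing that scaling gave whole reads for 98.8% to 99.0% of values, within 0.1 of a read. Libraries held 3536247 to 4793224 reads, and the median value of 1 read was 0.0161 to 0.0222 FPKM. Identifiers matched the GRCm38.p6 gene table for 2454 of 2462 genes. Libraries of a group all differed by more than counting noise, with a chi-square statistic per gene of 3.35 to 28.4.

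limma 3.58.1 in R 4.3.3, with trended and robust empirical Bayes, was run on log2(FPKM + 1), a pseudocount of 1, with all 9 libraries in 1 fit, for the 2013 genes that reached 1 FPKM in 3 or more libraries. Benjamini-Hochberg adjustment covered all of them, with a threshold of 0.05. edgeR 4.0.16 (quasi-likelihood) and DESeq2 1.42.0 on the recovered reads, other pseudocounts, filters and scalings, a fit of 6 libraries, a replicate block and leaving out each library were alternatives. Scripts were tested on simulated data. Bounds use a floor of 3 reads over a group. Plots used matplotlib 3.10.9.

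Members, lists and tests were chosen with earlier results of these data known, and lists are described by counts with no list test. List patterns were corrected after values were seen, to drop genes outside a family. Named genes were the 20 with the largest change in each direction among genes that passed, did not overlap and averaged 5 FPKM or more in whichever group was higher, up to 4 members of each list by test and size, and genes at 0 reads in 1 model with 30 or more in the other. Exceptions are stated. Kit was not analysed here. 1 member of a gene list is counted but not reported by name.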

Additional observations from a re-analysis of the deposited data

How the results depend on the processing

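The count of 281 genes was 219 to 336 under the other settings except the fit of only the 6 libraries, which gave 425 genes, with 222 lower in W/Wv. Of the 281, 137 passed under each of the 19 alternatives, 262 passed with edgeR and 255 with DESeq2, and 280 kept their sign under each of them. Leaving out 1 library gave 174 to 385 genes, 82 to 190 higher and 90 to 195 lower; the highest count was without WT library 3. The count at 2-fold or more, 12, became 36 when 0.1 replaced 1 as the pseudocount, 41 on recovered reads by edgeR and 39 by DESeq2, and was 12 to 14 without 1 library. Intervals within 2-fold held for 1947 to 1961 genes without 1 library. Of the 40 named genes, 36 passed under all alternatives tried; Erdr1, Mmp7, AA465934 (DESeq2 adjusted p = 0.067) and Rab44 did not. Why counts moved was not tested. A block of replicate numbers gave 219 genes, 104 higher and 115 lower. Same-numbered W/Wv and EDL libraries deviated with r = -0.24, -0.34 and -0.16, and 0 of 6 correlated best with their own number. With deviations taken from means of 3 libraries, this check cannot show whether same-numbered libraries shared a batch. Low genes are limited by depth: the median value of 1 read was 0.0161 to 0.0222 FPKM.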
